A study of Homo sapiens with 6 samples.

Results

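The genes described here are 5 members of the nuclear pore complex interacting protein (NPIP) family, NPIPA1, NPIPB3, NPIPB4, NPIPB5 and NPIPB11. They were taken from the deposited count table by their symbols and make up 5 of its 28675 genes. The table holds 21 rows whose symbol starts with NPIP, so the 5 members are listed beside 16 other copies. The members were chosen with their values in this comparison already known. Their levels and differences are therefore given as a description, with no p-value, and tests are given only for genes outside the list.

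Messenger RNA was sequenced from MDA-MB-231 cells, a line from a triple-negative breast cancer, that is, one without estrogen receptor, progesterone receptor or HER2 amplification. The 3 LARP6 libraries are of cells made to overexpress LARP6, a member of the La-related proteins that bind RNA, and the 3 control libraries are of cells given a no-load control. The sources used here do not give the vector, its promoter, the time after its introduction or whether the cells were a clone or a pool. Whether the 3 libraries of a group are from separate cultures is not stated, and each p-value therefore reflects the spread among these libraries, possibly a technical one.

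NPIP genes arose by repeated duplication of one segment, the core of many of the duplicated blocks of human chromosome 16. The copies multiplied in the great apes, parts of their coding sequence changed unusually fast, and the family takes its name from a described association with the nuclear pore complex. What the individual proteins do is poorly known, so no separate role is given below for any one copy. Pieces of other genes, among them the kinase gene SMG1 and the polycystin gene PKD1, were carried along in the same blocks as pseudogenes.

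All 5 members lie on chromosome 16 in the GENCODE v29 annotation of GRCh38, and each is annotated as protein coding. NPIPA1 (ENSG00000183426.17) is at chr16:14922802-14952060 on the plus strand. NPIPB3 (ENSG00000169246.16) at chr16:21402237-21448567 and NPIPB4 (ENSG00000185864.17) at chr16:21834569-21880827 are on the minus strand. NPIPB5 (ENSG00000243716.10) at chr16:22479121-22536521 is on the plus strand. NPIPB11 (ENSG00000254206.5) at chr16:29381354-29404029 is on the minus strand. NPIPB3, NPIPB4 and NPIPB5 each overlap an SMG1 pseudogene on the same strand, SMG1P3, SMG1P4 and SMG1P1 in that order, and NPIPA1 overlaps the PKD1 pseudogene PKD1P3.

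How close the copies can be is seen in an exon of 145 bases that all 5 members have in GENCODE v29. It is the longest NPIPB5 coding exon, within set limits of length, with a close match of the same length in every other member. Likeness was thus a condition of the choice. The 4 NPIPB members differ in it by few letters or none. The part of a read that lies in it holds little by which those copies could be told apart. The exon is at chr16:22527829-22527973 (plus strand) in NPIPB5, chr16:21410934-21411078 (minus) in NPIPB3, chr16:21843386-21843530 (minus) in NPIPB4, chr16:29389941-29390085 (minus) in NPIPB11 and chr16:14945837-14945981 (plus) in NPIPA1, all on GRCh38. Capitals mark the 17 positions at which the 5 sequences are not all alike, and each is written 5′ to 3′ on the strand of its gene.
NPIPB5: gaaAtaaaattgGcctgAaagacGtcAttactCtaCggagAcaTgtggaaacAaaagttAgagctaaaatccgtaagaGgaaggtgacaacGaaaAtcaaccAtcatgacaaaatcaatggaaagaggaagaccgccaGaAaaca
NPIPB3: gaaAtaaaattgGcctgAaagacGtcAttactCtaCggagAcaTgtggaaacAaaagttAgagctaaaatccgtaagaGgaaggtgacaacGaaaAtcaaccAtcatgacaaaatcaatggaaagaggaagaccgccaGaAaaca
NPIPB4: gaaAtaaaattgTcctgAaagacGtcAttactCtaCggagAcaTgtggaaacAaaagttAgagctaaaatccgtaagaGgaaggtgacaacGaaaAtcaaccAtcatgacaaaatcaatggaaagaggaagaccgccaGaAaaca
NPIPB11: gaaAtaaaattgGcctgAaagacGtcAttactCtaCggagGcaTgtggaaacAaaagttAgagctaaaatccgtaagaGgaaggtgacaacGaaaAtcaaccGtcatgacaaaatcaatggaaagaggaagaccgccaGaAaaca
NPIPA1: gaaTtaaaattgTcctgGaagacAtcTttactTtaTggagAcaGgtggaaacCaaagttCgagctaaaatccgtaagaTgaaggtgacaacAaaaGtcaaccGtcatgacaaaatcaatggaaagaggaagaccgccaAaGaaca
The exons of NPIPB5 and NPIPB3 were identical over all 145 bases. That of NPIPB4 differed from NPIPB5 at 1 position, that of NPIPB11 at 2 and that of NPIPA1 at 16. The 4 NPIPB copies were thus close to one another in this exon, and the NPIPA copy stood apart from them.

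The same was measured over whole genes by sliding a window of 150 bases, the read length, along every GENCODE v29 transcript of a copy and asking whether those letters occur, on either strand, in a transcript of any other gene. The share of windows found in no other gene was 3.93% in NPIPB3, 23.1% in NPIPB5, 31.1% in NPIPB4, 32.3% in NPIPA1 and 61.1% in NPIPB11. NPIPB3 was the member with the least sequence of its own, and NPIPB11 the one with the most. With windows of 75 bases the shares were 2.89%, 15.8%, 20.6%, 21.4% and 35.9% for the same genes, in the same order.

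NPIPB3, NPIPB4 and NPIPB5 shared most with each other. Of the 5653 windows of NPIPB3, 96.1% also occurred in NPIPB5 and 75.4% in NPIPB4. Of the windows of NPIPB4, 67.4% occurred in NPIPB5 and 54.1% in NPIPB3. NPIPB5 has the longest exon sequence of the members, and 48.4% of its windows were found in NPIPB3 and 47.2% in NPIPB4. Outside the family, 17.05% of the NPIPB5 windows occurred in SMG1P1, 17.05% in SMG1P3, 12.9% in SMG1P4 and 1.34% in SMG1. NPIPB11 shared most with NPIPB12, at 30.6% of its windows. NPIPA1 shared little with the NPIPB copies and most with PKD1P3, which occupies part of the same stretch of chromosome and held 46.3% of its windows. The sources used here do not name the authors' counter or say what it did with reads that match several places, so reads of these copies may be split between rows, given to 1 row or dropped.

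**Figure D1:**
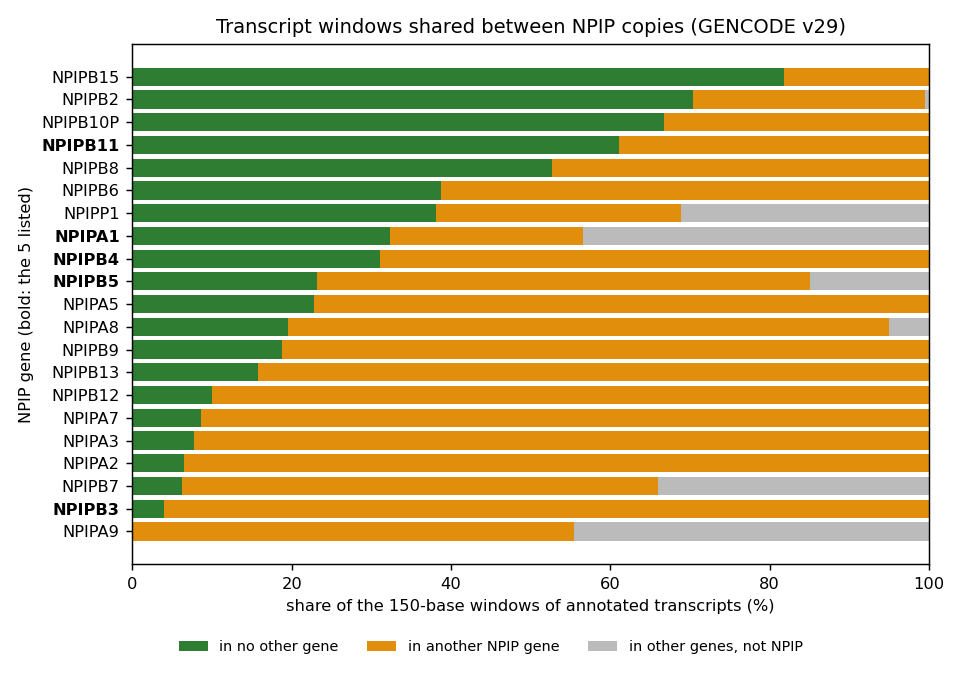
Share of the 150-base transcript windows (percent, horizontal axis) of each of the 21 NPIP copies that occur in no other gene, in another NPIP gene, or only in genes outside the family; the 5 members are in bold. Among the 5 members NPIPB3 has the lowest share, at 3.93% of 150-base windows, and NPIPB11 the highest, at 61.1%.

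The start regions of some copies also shared long identical runs. RefSeq start windows on GRCh38.p14 were at hand for 3 of the 5 members, NPIPA1, NPIPB3 and NPIPB4. The windows of NPIPB3 and NPIPB4, 300 bases each, share an identical run of 202 bases. The window of NPIPA1 shares a run of 205 bases with that of NPIPA5 and 195 bases with that of NPIPA7. Its longest run in common with NPIPB3 or NPIPB4 is 9 bases. The windows do not all lie at the same place in their genes. That of NPIPA1 starts at chr16:14937193, inside its annotated gene, and that of NPIPA8 at chr16:18336687, at the annotated 5′ end. Whether the windows match in position was not tested, so the runs are not read against the NPIPA and NPIPB branches. NPIPA1 shares 8 bases with NPIPA6, NPIPA8 and NPIPA9, and 116 and 6 bases with the windows of NPIPB2.

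Depth was 29409101 to 33387050 counts per library. Levels are depth-normalised counts in CPM, computed with TMM-scaled library sizes. LARP6 itself averaged 2110 ± 104 CPM in LARP6 libraries and 42.7 ± 1.85 CPM in control libraries (SD, n = 3 each), a log2 difference of 5.62 ± 0.04 (SE; adjusted p = 4.73e-94, edgeR quasi-likelihood test with Benjamini-Hochberg adjustment). Markers of the line and of other cell types were then read. VIM, which encodes vimentin, averaged 3350 CPM in LARP6 libraries and 3150 CPM in control libraries, and CD44 averaged 724 CPM in LARP6 libraries and 761 CPM in control libraries. ESR1 had 1 count over all 6 libraries, and ERBB2 averaged 54.9 CPM in LARP6 libraries and 57.2 CPM in control libraries. Of the markers of leukocytes, endothelium and muscle, CD3E, MS4A1 and DES had 1 count each over all 6 libraries, and PECAM1 was the highest, at 5.73 CPM in LARP6 libraries and 5.68 CPM in control libraries. These are bulk libraries, in which fewer cells with a transcript and less of it per cell cannot be told apart. Of the 16226 genes tested, 979 passed an adjusted p below 0.05 by edgeR, 395 of them higher and 584 lower in LARP6 libraries, which is 6.03% in either direction, 2.43% higher and 3.6% lower.

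NPIPB5 was the most abundant member and had the clearest difference between the groups. It was counted at 333, 327 and 327 reads in LARP6 libraries 1, 2 and 3, against 222, 214 and 274 reads in control libraries 1, 2 and 3. Scaled to depth, that was 11.2, 10.7 and 10.3 CPM in LARP6 libraries, against 7.29, 7.25 and 8.35 CPM in control libraries. Each LARP6 library was above each control library, and control library 3 was the nearest to the LARP6 libraries. The means were 10.7 ± 0.424 CPM in LARP6 libraries and 7.63 ± 0.624 CPM in control libraries (SD, n = 3 each), a 1.40-fold ratio and a fitted log2 difference of 0.49 ± 0.10 (SE). With any 1 library left out, the log2 difference was between 0.45 and 0.56. On log2(FPKM + 1), where values below 1 are compressed, it was 0.23.

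NPIPB4 was also higher on average in LARP6 libraries, but 1 library went against the others. It had 5.63, 6.01 and 4.19 CPM in LARP6 libraries 1, 2 and 3, against 4.10, 3.76 and 4.51 CPM in control libraries 1, 2 and 3. LARP6 library 3 lay within the control range, so the groups overlapped. The means were 5.28 ± 0.960 CPM in LARP6 libraries and 4.13 ± 0.375 CPM in control libraries (SD, n = 3 each), a 1.27-fold ratio and a log2 difference of 0.35 ± 0.14 (SE). Without LARP6 library 3 the log2 difference was 0.49.

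NPIPA1, the only member of the NPIPA branch, differed little between the groups. It had 5.19, 4.17 and 4.10 CPM in LARP6 libraries 1, 2 and 3, against 4.50, 3.86 and 3.60 CPM in control libraries 1, 2 and 3. LARP6 library 1 was the highest of the 6, and the other 2 LARP6 libraries lay inside the control range. The means were 4.49 ± 0.611 CPM in LARP6 libraries and 3.99 ± 0.463 CPM in control libraries (SD, n = 3 each), a 1.13-fold ratio and a log2 difference of 0.17 ± 0.14 (SE).

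NPIPB3 varied more within the groups than between them. Its counts were 51, 97 and 48 in LARP6 libraries 1, 2 and 3, against 40, 28 and 100 in control libraries 1, 2 and 3. That was 1.71, 3.19 and 1.51 CPM in LARP6 libraries, against 1.31, 0.949 and 3.05 CPM in control libraries. LARP6 library 2 and control library 3 were high and the other 4 libraries low, so the groups overlapped. The means were 2.14 ± 0.916 CPM in LARP6 libraries and 1.77 ± 1.12 CPM in control libraries (SD, n = 3 each), with a log2 difference of 0.25 ± 0.58 (SE). The sign of this difference depended on single libraries. It was -0.16 without LARP6 library 2 and -0.04 without control library 2. It was 0.91 without control library 3.

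NPIPB11 was the least abundant member. It was counted at 19, 37 and 33 reads in LARP6 libraries 1, 2 and 3, against 30, 11 and 29 reads in control libraries 1, 2 and 3. That was 0.637, 1.22 and 1.04 CPM in LARP6 libraries, against 0.985, 0.373 and 0.884 CPM in control libraries. LARP6 library 1 and control library 2 were low, and the groups overlapped. The means were 0.964 ± 0.297 CPM in LARP6 libraries and 0.747 ± 0.328 CPM in control libraries (SD, n = 3 each), a 1.28-fold ratio and a log2 difference of 0.36 ± 0.31 (SE). Without control library 2 the log2 difference was 0.05.

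**Figure D2:**
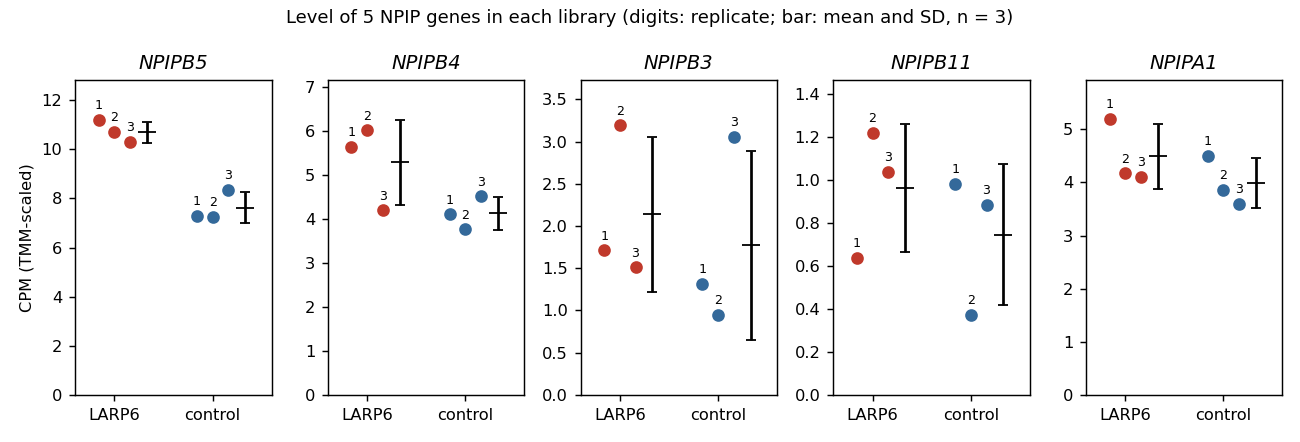
CPM of each of the 5 members in each library (points), with LARP6 libraries left of control libraries and the mean and SD of each group. NPIPB5 is the member whose groups do not overlap, with LARP6 libraries at 10.3 to 11.2 CPM and control libraries at 7.25 to 8.35 CPM.

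Of the 5 members, NPIPB5 was the only one whose groups did not overlap, which held for 22.3% of all genes tested in either direction and for 10.6% with LARP6 libraries higher. These members were picked from the same comparison, so nothing is read from that count against these shares. The median log2 difference of the 5 members was 0.35, beside 0.004 over all genes tested. All 5 fitted differences were above 0, as were those of 8302 of the 16226 genes tested.

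Per length of transcript, the order of the members was nearly that of their counts. On the scale of the authors' FPKM, which are counts divided by gene length and depth, NPIPB5 stood highest, at 0.957 ± 0.0351 FPKM in LARP6 libraries and 0.667 ± 0.0551 FPKM in control libraries (SD, n = 3 each). In both groups its lowest library was above the highest library of any other member. NPIPB4 followed with 0.587 ± 0.104 FPKM in LARP6 libraries and 0.450 ± 0.0400 FPKM in control libraries, and NPIPA1 with 0.543 ± 0.0751 FPKM in LARP6 libraries and 0.477 ± 0.0569 FPKM in control libraries. These neighbours could not be ordered, since their libraries overlapped in both groups. NPIPB3 averaged 0.403 ± 0.171 FPKM in LARP6 libraries and 0.327 ± 0.204 FPKM in control libraries, and its libraries overlapped those of NPIPB4 and NPIPA1. NPIPB11 was lowest, at 0.197 ± 0.0611 FPKM in LARP6 libraries and 0.150 ± 0.0700 FPKM in control libraries. It stood below every NPIPB3 library in the LARP6 group but not in the control group.

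The members also differed in how far libraries of the same group varied. The coefficient of variation (CV) within groups was 52.4% for NPIPB3, where counting error alone at its mean count would give 12.8%. Among 723 tested genes of similar mean count, within a factor of 1.25, the median CV was 15.3%, and 99.9% of them varied less than NPIPB3. NPIPB11 had a CV of 36.6% (counting error, 19.4%; median of 884 similar genes, 22.4%), and NPIPB4 one of 15.5% (counting error, 8.31%; median of 859 similar genes, 10.3%). NPIPA1 was closer to its peers, with 12.8% beside a median of 10.8%. NPIPB5, at 5.81%, varied about as much as counting error alone, 5.95%. NPIPB3, with the fewest windows of its own, was the most variable member, and NPIPB11, with the most, was second. NPIPA9, a copy outside the list with still fewer than NPIPB3, had a CV of 18.9% beside a median of 15.7% for similar genes. A link between shared sequence and variation was not tested.

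**Figure D3:**
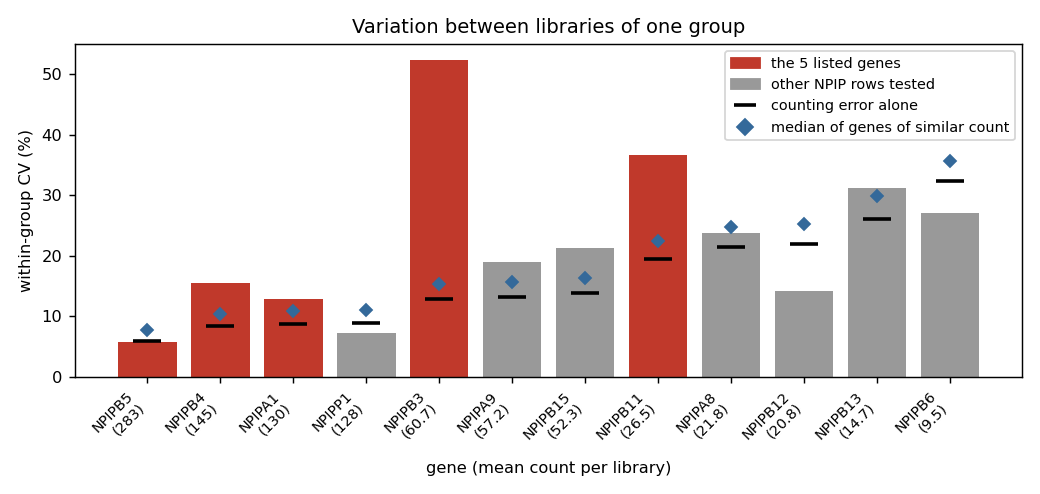
Within-group CV (percent, bars) of the 12 NPIP copies tested, with the 5 members in red, beside the CV from counting error alone and the median of tested genes with similar mean counts. NPIPB3 stands at 52.4%, beside a median of 15.3% for similar genes, and NPIPB5 at 5.81%.

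Rows were also summed, since a read moved from one summed copy to another stays in the sum. How reads with several matches were counted is not known, so the sums can still miss reads or hold some more than 1 time. The sum of the 5 members was 24.32, 25.34 and 21.15 CPM in LARP6 libraries 1, 2 and 3, against 18.19, 16.2 and 20.39 CPM in control libraries 1, 2 and 3. The groups did not overlap, although LARP6 library 3 and control library 3 were close. The means were 23.6 ± 2.18 CPM in LARP6 libraries and 18.3 ± 2.09 CPM in control libraries (SD, n = 3 each), a 1.29-fold ratio. All 21 NPIP rows together gave 34.1 ± 2.02 CPM in LARP6 libraries and 28.9 ± 1.10 CPM in control libraries, a 1.18-fold ratio with no overlap. This sum includes the 5 members, which were chosen with their values known. Its gap is therefore not read as one of the whole family. With the 16 other rows added to the members, the ratio fell from 1.29-fold to 1.18-fold. Those 16 rows were not summed apart. Without NPIPB5, the other 4 members summed to 13.17, 14.59 and 10.84 CPM in LARP6 libraries, against 10.9, 8.947 and 12.04 CPM in control libraries, and the groups overlapped. NPIPB3, NPIPB4 and NPIPB5, a set chosen after the values were seen because they share most windows, summed to 18.49, 19.95 and 16.01 CPM in LARP6 libraries, against 12.7, 11.96 and 15.91 CPM in control libraries. Their groups were separated by the small gap between LARP6 library 3 and control library 3.

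Of the counts of the 21 NPIP rows, the 5 members took 70.6%, 70.5% and 66.2% in LARP6 libraries 1, 2 and 3, against 62.4%, 58.4% and 68.2% in control libraries 1, 2 and 3. Genes without an NPIP symbol that share windows with the copies are not in this total. One such gene is RP11-1212A22.9, which held 64.0% of the 150-base windows of NPIPA8. Control library 3 fell among the LARP6 libraries. NPIPB5 alone took 32.4%, 29.9% and 32.3% in LARP6 libraries, against 25.0%, 26.2% and 27.9% in control libraries, and here the groups did not overlap. The exact binomial 95% interval for LARP6 library 1 was 29.5% to 35.3% and covers counting error only. The share of NPIPB3 was 6.19 ± 2.33% in LARP6 libraries and 6.04 ± 3.64% in control libraries (SD, n = 3 each). The largest shift the other way was that of NPIPP1, a transcribed pseudogene of the family, which took 10.8 ± 1.71% in LARP6 libraries and 16.2 ± 1.27% in control libraries. Shares of the same total are tied to each other, so a higher share of NPIPB5 by itself lowers those of other rows.

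**Figure D4:**
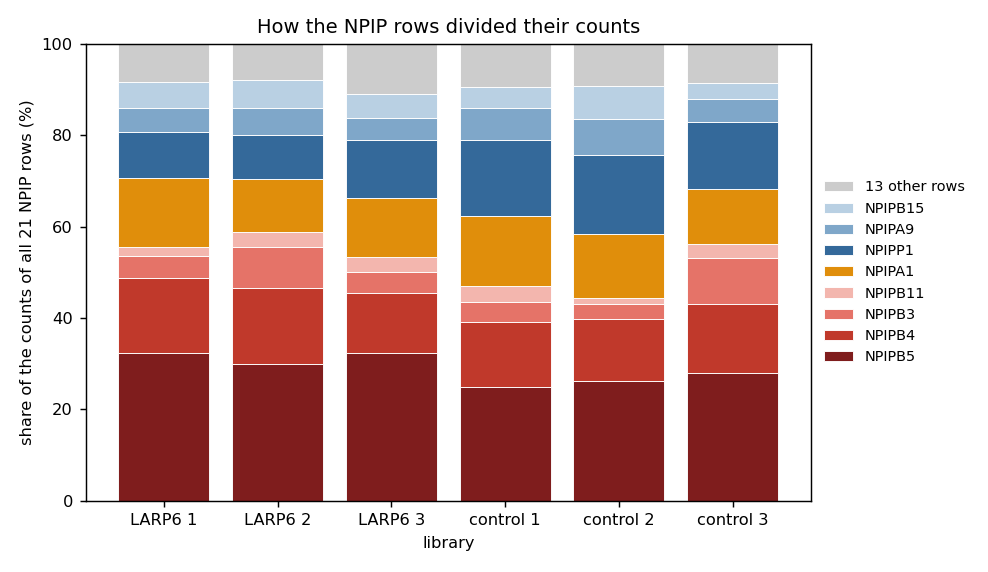
Share of the counts of all 21 NPIP rows (percent) taken by 8 named copies and by the 13 other rows in each library, with LARP6 libraries left of control libraries. NPIPB5 takes the largest share in every library, 29.9% to 32.4% in LARP6 libraries and 25.0% to 27.9% in control libraries.

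The copies outside the list showed no called difference. Of the 16 other NPIP rows, 7 passed the filter on low counts, and edgeR called 0 of these 7 at an adjusted p below 0.05. Of all genes tested 6.03% were called, so 0 of 7 is not read as a result about these copies. Over the 16226 genes tested, 3085 had an unadjusted p below 0.05 by edgeR. At an unadjusted p below 0.05 edgeR gave 1, limma-voom gave 2 with 0 after adjustment, and DESeq2 gave 1 but assigned no adjusted p to any of them. Their median log2 difference was 0.08, with 4 above 0 and 3 below. The 9 rows that failed the filter, NPIPA2, NPIPA3, NPIPA5, NPIPA7, NPIPB2, NPIPB7, NPIPB8, NPIPB9 and NPIPB10P, had at most 11 counts in any library.

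NPIPP1 was the tested copy nearest to a call. It had 3.48, 3.42 and 4.07 CPM in LARP6 libraries 1, 2 and 3, against 4.83, 4.78 and 4.42 CPM in control libraries 1, 2 and 3. Each LARP6 library was below each control library, which held for 11.7% of all genes tested. The log2 difference was -0.35 ± 0.14 (SE; adjusted p = 0.128, edgeR; 0.0801 to 0.349 over the alternative fits), the opposite sign to those of the 5 members. Per length it was the most abundant copy of the family, at 2.26 ± 0.223 FPKM in LARP6 libraries and 2.84 ± 0.144 FPKM in control libraries (SD, n = 3 each). NPIPP1 lies opposite to the gene PDXDC1, which stood at 50.1 ± 2.52 CPM in LARP6 libraries and 50.2 ± 1.42 CPM in control libraries (adjusted p = 0.980). The kit keeps strand, but whether the counter used it is not stated.

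The other tested copies were low. NPIPB15, a copy far from the others with 81.8% of its windows to itself, had 1.95 ± 0.237 CPM in LARP6 libraries and 1.47 ± 0.456 CPM in control libraries (SD, n = 3 each), a log2 difference of 0.41 ± 0.22 (SE; adjusted p = 0.283, edgeR). NPIPA9, with the fewest windows to itself of the tested copies at 0.117%, had a log2 difference of -0.05 ± 0.21 (SE; adjusted p = 0.934). NPIPA8, NPIPB6, NPIPB12 and NPIPB13 averaged below 1 CPM in both groups and had log2 differences of 0.08, 0.36, -0.05 and 0.47 with adjusted p-values of 0.936, 0.734, 0.954 and 0.552, in that order. The signs of NPIPA8, NPIPA9 and NPIPB12 turned when some single libraries were left out. In NPIPB13 and NPIPB6 the sizes were near those of the members, with standard errors of 0.39 and 0.47.

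**Figure D5:**
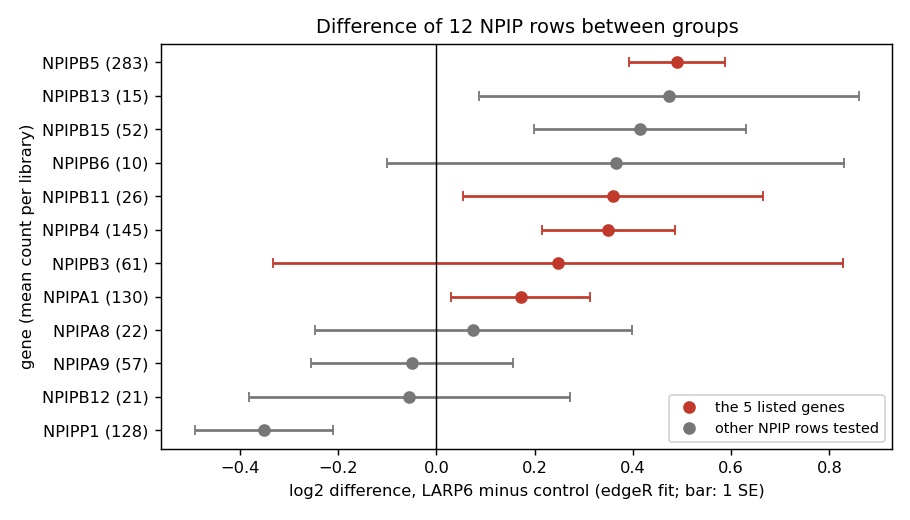
Fitted log2 differences, LARP6 minus control, with standard errors for the 12 NPIP copies tested, the 5 members in red and the mean count per library beside each name. NPIPB5 is at 0.49 ± 0.10 and NPIPP1 at -0.35 ± 0.14, and the bars of NPIPB3, NPIPB6, NPIPA8, NPIPA9 and NPIPB12 cross 0.

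The pseudogene rows that overlap the members on the genome were not called. SMG1P1, which overlaps NPIPB5, had 1.20 ± 0.354 CPM in LARP6 libraries and 1.02 ± 0.0923 CPM in control libraries (log2 difference 0.23 ± 0.27, SE; adjusted p = 0.699, edgeR). SMG1P3, which overlaps NPIPB3, had a log2 difference of 0.08 (adjusted p = 0.917). SMG1P4, which overlaps NPIPB4, had at most 2 counts in any library and was not tested. PKD1P3, which overlaps NPIPA1, had 3.24 ± 0.527 CPM in LARP6 libraries and 3.16 ± 0.638 CPM in control libraries (adjusted p = 0.940).

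Genes near the members were not called either. The 3 nearest tested genes on each side of every member, NPIP genes left out, came to 26 genes, and edgeR called 0 of them, with 4 at an unadjusted p below 0.05. Of all 16226 genes tested edgeR called 6.03%, with 3085 at an unadjusted p below 0.05. With so few neighbours, 0 calls beside that share is not read as a result about position. DESeq2 gave an adjusted p to 14 of the 26 and called 0, with 3 unadjusted, and limma-voom called 0, with 4 unadjusted. The smallest p was that of CRYM-AS1, named as antisense to CRYM, typed as a transcribed pseudogene and near NPIPB3. Overlap with CRYM was not measured, so how far its reads depend on the strand setting of the counter is not known. CRYM-AS1 had 0.518 ± 0.180 CPM in LARP6 libraries and 0.223 ± 0.137 CPM in control libraries (log2 difference 1.19 ± 0.45, SE; adjusted p = 0.0973). MOSMO, which encodes a modulator of Smoothened and lies near NPIPB4, followed with 15.0 ± 0.610 CPM in LARP6 libraries and 13.1 ± 1.08 CPM in control libraries (adjusted p = 0.133). The median log2 difference of the 26 neighbours was 0.006. The lists are not separate. PKD1P3, SMG1P1 and SMG1P3 are neighbours, overlapping rows given above and genes of the duplicated blocks counted below. Further neighbours, such as NOMO1 and RRN3P3, are also counted below.

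Of the genes whose copies share the duplicated blocks of chromosome 16, 29 were tested and 1 was called, SMG1, at 3.45% beside 6.03% of all genes tested. SMG1, the kinase of nonsense-mediated mRNA decay, rose to 40.1, 35.1 and 36.7 CPM in LARP6 libraries, against 30.9, 32.3 and 32.9 CPM in control libraries, with no overlap. Its log2 difference was 0.22 ± 0.05 (SE; adjusted p = 0.00412, edgeR). The call was lost without LARP6 library 1 (adjusted p = 0.145), with offsets for GC content and length (0.239) and in the fits on FPKM (0.244 and 0.251). The median over the 29 genes was 0.006.

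Nuclear pore genes encode the complex the family is named after. Of 33 tested, 1 was called, NUP153, a component of the nuclear basket, at 3.03% beside 6.03% of all genes tested. NUP153 averaged 86.3 ± 2.84 CPM in LARP6 libraries and 79.3 ± 1.68 CPM in control libraries (SD, n = 3 each; log2 difference 0.12 ± 0.04, SE; adjusted p = 0.0304, edgeR). The call was lost in DESeq2 (adjusted p = 0.0588), with offsets for GC content and length (0.265), and without LARP6 library 1, LARP6 library 3, control library 1 or control library 2. The median over the 33 genes was 0.007, beside 0.004 over all genes tested, with 18 of the 33 above 0 and 15 below. With 33 genes, 1 call beside 6.03% of all genes tested is not read as a result about the nuclear pore.

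Across the 6 libraries, the genes whose pattern was most like the mean pattern of the members were RGS4, LTB4R, BICD1, ZNF439 and RTTN. Likeness was the root mean square distance between centred log2 CPM values over the 6 libraries, and the median distance of the 10575 candidates, protein-coding genes averaging 5 CPM or more, was 0.285. RGS4, a regulator of G-protein signalling, was nearest at 0.0967. LTB4R, a leukotriene B4 receptor, followed at 0.107, and BICD1, a dynein adaptor, at 0.112. The mean pattern of the members was lowest in control library 2 (-0.52) and highest in LARP6 library 2 (0.40), with the other 4 libraries between -0.11 and 0.10, and those extremes were set mostly by NPIPB3 and NPIPB11.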

How the data were processed

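Counts per gene were made by the authors and deposited as whole numbers, 1 column for each of the 6 libraries. FPKM values per gene, which the authors scaled by length and depth, were deposited in a second table. The submitters' processing notes name HISAT2, DESeq2 and GRCh38 and give no version. The sources used here do not give the counter, how it treated strand, or the annotation release. Groups were taken from the titles.

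The deposited counts were tested in R 4.3.3 by edgeR 4.0.16 (expression filter, TMM scaling, robust quasi-likelihood test, no covariate, Benjamini-Hochberg adjustment over 16226 genes, threshold 0.05). CPM used TMM-scaled library sizes. The common CV between libraries was 3.23%. DESeq2 1.42.0, limma-voom and limma 3.58.1 on log2(FPKM + 1) and log2(FPKM + 0.1) were alternatives, as were other scalings and filters, offsets for GC content and length, a replicate block and leaving out each library. On the log2(FPKM + pseudocount) scale the differences of low genes are understated. GENCODE v29, which held 97.0% of the gene identifiers, gave coordinates and transcripts, and RefSeq the start windows; no genome sequence was used. The edgeR fit was tested on simulated data, and no outcome of that is given or used here.

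The members and the gene lists were chosen with earlier results of these data known. The genes named were the members, LARP6, the other NPIP rows tested, the up to 4 called genes with the smallest p from each list (the 2 of smallest p where a list had no call) and the 5 genes nearest to the members' mean profile. Overlapping rows and the markers of the line and of other cells are named beside the results they touch. The interval on a share of counts covers counting error only: without molecular identifiers, reads may repeat one molecule.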

Additional observations from a re-analysis of the deposited data

How the results depend on the processing

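The log2 difference of NPIPB5 was 0.23 on log2(FPKM + 1) and 0.46 on log2(FPKM + 0.1), beside 0.49 on counts. The number of genes called, 979, was 611 by DESeq2, 90 and 92 by limma on log2(FPKM + 1) and log2(FPKM + 0.1), 623 with offsets for GC content and length, 443 at an adjusted p below 0.01, and 456 to 1040 with 1 library left out. Scaling by library size alone called 990, 687 higher and 303 lower, against 395 higher and 584 lower with TMM. The calls among the partners on chromosome 16 (1 gene) came to 0 in both fits on FPKM and both fits with the offsets, and 0 to 1 with 1 library left out. Those among nuclear pore genes (1 gene) came to 0 with no filter, by DESeq2, in both fits on FPKM, in both fits with the offsets and at an adjusted p below 0.01, and 0 to 1 with 1 library left out. Those among other duplicated families (5 genes) came to 2 by DESeq2, which gave an adjusted p to 23 of the 72 genes and none to FAM86B1 or NBPF26, 0 in both fits on FPKM, 2 at an adjusted p below 0.01, and 3 to 5 with 1 library left out. No other NPIP copy and no neighbour was called in any alternative that gave them an adjusted p.

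Of the log2 differences of the 12 NPIP copies tested, those of 4 changed sign, each when a library was left out and under no other alternative run. NPIPB3 ran from -0.16 to 0.91, NPIPA9 from -0.21 to 0.074, NPIPA8 from -0.10 to 0.37 and NPIPB12 from -0.19 to 0.051. The cause was not tested. The share of NPIPB5 among NPIP reads was 5.17 percentage points higher in LARP6 libraries by counts and 3.17 points higher by FPKM.

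The libraries numbered 3 deviated together (r = 0.23 over 10072 genes), but r was 0.0985 for number 1 and 0.0444 for number 2, and control library 2 correlated best with LARP6 library 1, so the numbers were not taken as pairs. With the replicate block edgeR called 1345 genes, and 734 with the offsets as well; the log2 difference of NPIPB5 was 0.49. With the replicate block the calls were 1 among the partners, 1 among nuclear pore genes and 6 among other duplicated families. Among the members, NPIPB11 had the fewest counts, 11 to 37 per library.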

Other observations

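Other families of near-identical copies, listed beside NPIP because their reads face the same question of assignment, had 72 genes tested and 5 called, 4 higher and 1 lower in LARP6 libraries, which is 6.94% beside 6.03% of all genes tested. HERC2P2, a pseudogene of the ubiquitin ligase gene HERC2, was higher, at 11.7, 11.9 and 9.43 CPM in LARP6 libraries 1, 2 and 3, against 7.55, 8.13 and 6.77 CPM in control libraries 1, 2 and 3 (log2 difference 0.56 ± 0.10, SE; adjusted p = 1.9e-05, edgeR). GOLGA8B, a golgin family copy, was also higher, at 11.5 ± 0.666 CPM in LARP6 libraries and 8.65 ± 0.740 CPM in control libraries (SD, n = 3 each; adjusted p = 0.0015). NBPF26, of the neuroblastoma breakpoint family, had 4.24 ± 0.736 CPM in LARP6 libraries and 2.99 ± 0.292 CPM in control libraries (adjusted p = 0.0269), and FAM86B1 was lower, at 0.899 ± 0.179 CPM in LARP6 libraries and 1.70 ± 0.114 CPM in control libraries (adjusted p = 0.0109). None of these 4 was called in the fits on FPKM. FAM86B1 lost its call without LARP6 library 1, LARP6 library 2 or control library 3, and NBPF26 lost its call without LARP6 library 2, LARP6 library 3 or control library 1. NBPF15, the fifth call and named after its value was seen, had 25.7 ± 1.89 CPM in LARP6 libraries and 22.4 ± 0.431 CPM in control libraries (adjusted p = 0.0400). The median log2 difference of the 72 genes was 0.10, with 44 above 0 and 28 below.

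The table also holds readthrough rows that join an NPIP copy to its neighbour. PDXDC2P-NPIPB14P, which joins a pseudogene of PDXDC1 to an NPIP pseudogene, had 3.15, 2.83 and 2.11 CPM in LARP6 libraries 1, 2 and 3, against 2.04, 2.14 and 1.92 CPM in control libraries 1, 2 and 3, so LARP6 library 3 overlapped the control libraries (log2 difference 0.41 ± 0.19, SE; adjusted p = 0.195, edgeR). PKD1P6-NPIPP1, which overlaps NPIPP1 on the same strand, had 1.72 ± 0.123 CPM in LARP6 libraries and 1.94 ± 0.276 CPM in control libraries (SD, n = 3 each; log2 difference -0.18 ± 0.21, SE; adjusted p = 0.695).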
